A study of Homo sapiens with 6 samples.

Results

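Far intergenic regions are the matrix-attached regions that lay in gene deserts. They were chosen as the rows of the 3 deposited region lists that sit on an autosome, have their centre more than 100 kb from the nearest protein-coding gene body and fall in no gene of any biotype in the RefSeq gene table of GRCh38. There were 11833 of them among the 115751 regions of the 3 lists. The hPSC list held 3917, the shLUC list 4127 and the shHNRNPU list 3789. MAR-seq, which sequences the DNA that remains with the nuclear matrix after nuclei are extracted with detergent and cut with restriction enzymes, was performed in H1, an established human embryonic stem cell line grown on Matrigel in mTeSR1. The hPSC group had the treatment "None", the shLUC group carried an shRNA against LUC and the shHNRNPU group an shRNA against HNRNPU, and each group had 2 samples but 1 list. No spread between samples can therefore be computed, no test was run, and every interval below is a 95% exact binomial interval that covers counting error only, over regions that share a library and are not independent. Read depth is unknown, the lists hold no expression values by which the knockdown or the cell type could be checked, and the labels do not say whether the hairpin cells were a clone or a pool. All regions were 400 bp wide.

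The nuclear matrix is the protein and RNA framework that remains in a nucleus once soluble proteins and most DNA have been removed, and matrix attachment regions are the DNA segments that stay with it. Such segments have been described as anchors of chromatin loops and are often rich in A and T. HNRNPU, also named SAF-A, is an abundant nuclear protein that binds both RNA and attachment DNA. Gene deserts are long stretches without coding genes, often next to genes that control development, and much of their DNA lies at the nuclear lamina.

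The only sequence at hand for these regions is that around annotated gene starts, in RefSeq windows of 250 bases before to 50 bases after a start (GRCh38.p14). A far intergenic region lies in no gene at its centre, so it can reach a start only from the flank of a non-coding gene. Such contacts were few. A far intergenic region of any list overlapped 48 start windows of long non-coding RNAs (lncRNAs), 33 with hPSC, 19 with shLUC and 20 with shHNRNPU regions. Of these, 4 were reached by a far intergenic region of all 3 lists, and they are shown because they are the members in all lists that can be read as sequence. Capitals mark the bases inside the regions of all 3 lists, and each run is 5′ to 3′ on the strand of the lncRNA.
LOC105372923, chr1:218164807-218165106, plus strand: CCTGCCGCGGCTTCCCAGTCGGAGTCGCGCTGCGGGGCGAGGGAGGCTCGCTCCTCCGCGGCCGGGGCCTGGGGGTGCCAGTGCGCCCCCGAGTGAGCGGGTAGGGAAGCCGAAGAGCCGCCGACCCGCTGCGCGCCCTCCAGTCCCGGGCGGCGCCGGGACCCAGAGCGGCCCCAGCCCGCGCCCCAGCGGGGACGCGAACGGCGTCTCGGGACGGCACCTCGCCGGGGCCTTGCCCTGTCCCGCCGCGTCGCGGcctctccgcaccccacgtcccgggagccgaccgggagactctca
LOC105378150, chr6:170023517-170023816, plus strand: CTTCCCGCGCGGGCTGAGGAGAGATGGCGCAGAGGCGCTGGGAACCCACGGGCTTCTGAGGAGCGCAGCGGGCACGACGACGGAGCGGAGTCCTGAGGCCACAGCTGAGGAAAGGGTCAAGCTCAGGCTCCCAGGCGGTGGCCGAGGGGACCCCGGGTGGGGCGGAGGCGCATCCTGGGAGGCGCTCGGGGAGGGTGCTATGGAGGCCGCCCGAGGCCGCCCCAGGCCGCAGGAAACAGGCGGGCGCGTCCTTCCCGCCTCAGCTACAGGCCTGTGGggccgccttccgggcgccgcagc
LOC107986997, chr9:40991782-40992081, minus strand: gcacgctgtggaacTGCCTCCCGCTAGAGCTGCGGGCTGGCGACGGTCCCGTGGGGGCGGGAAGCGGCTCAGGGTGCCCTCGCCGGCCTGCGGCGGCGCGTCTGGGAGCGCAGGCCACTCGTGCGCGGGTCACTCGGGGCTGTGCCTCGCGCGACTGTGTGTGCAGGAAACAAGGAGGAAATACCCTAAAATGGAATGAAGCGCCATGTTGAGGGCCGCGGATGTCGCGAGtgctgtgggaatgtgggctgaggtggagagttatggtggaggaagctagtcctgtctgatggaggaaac
LOC124904682, chr19:29093002-29093301, minus strand: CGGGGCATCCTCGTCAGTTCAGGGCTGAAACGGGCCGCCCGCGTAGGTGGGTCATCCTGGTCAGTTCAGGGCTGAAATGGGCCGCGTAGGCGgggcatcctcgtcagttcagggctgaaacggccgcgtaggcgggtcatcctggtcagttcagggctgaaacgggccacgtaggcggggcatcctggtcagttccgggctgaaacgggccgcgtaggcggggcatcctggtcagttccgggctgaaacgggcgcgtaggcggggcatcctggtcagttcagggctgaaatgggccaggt

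All 4 windows were rich in G and C. The GC content was 79.3% for LOC105372923, 74.0% for LOC105378150, 65.3% for LOC107986997 and 66.0% for LOC124904682. These 4 starts lay 120.2, 242.2, 134.6 and 112.3 kb from the nearest coding gene in the same order. The hPSC region did not coincide with the hairpin regions at LOC105372923, LOC105378150 or LOC107986997, where the hairpin lists had the same region. At LOC105372923 the hPSC region spanned 218164729 to 218165128 and both hairpin regions 218164663 to 218165062. The hPSC region began at 170023394 against 170023425 at LOC105378150, and at 40991668 against 40991851 at LOC107986997. At LOC124904682 all 3 lists held the same 400 bp, 29093210 to 29093609, and the window is built of near repeats in which the 12-base run AGTTCAGGGCTG occurs 5 times. The protocol cut with MspI (CCGG), HaeIII (GGCC), RsaI (GTAC), AluI (AGCT), BamHI (GGATCC) and PvuII (CAGCTG), sites that read the same on both strands, and each PvuII site contains an AluI site. The number of 4-base sites in the 4 windows was 11, 12, 6 and 8 in the order shown.

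Over all 48 lncRNA starts with a far intergenic region the median GC content was 60.0% (quartiles 49.4 and 66.8%). For the 2733 start windows of lncRNAs over 100 kb from a coding gene that no region overlapped, it was 42.0% (quartiles 37.0 and 48.3%). An MspI site was present in 70.8% of the 48 windows against 21.3% of the 2733, and in 63.2% of all 33725 windows in the table. HaeIII sites followed the same order, with 81.3%, 52.1% and 79.0%. RsaI sites went the other way, with 14.6%, 38.2% and 29.7%, and AluI sites hardly differed, with 75.0%, 73.8% and 74.0%. BamHI sites were in 6.25%, 4.24% and 6.84% of windows and PvuII sites in 27.1%, 15.4% and 18.0%. Base composition and site content move together here, and their part in which starts carried a region was not tested. Regions away from gene starts could not be read as sequence, so none of this describes the far intergenic regions as a whole.

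Starts deep in gene deserts carried a region of any kind less often than other starts. Of 2854 lncRNA start windows over 100 kb from a coding gene, 81 overlapped an hPSC region (2.84%, interval 2.26 to 3.52%), 50 a shLUC region (1.75%, interval 1.30 to 2.30%) and 48 a shHNRNPU region (1.68%, interval 1.24 to 2.22%). Among 9715 lncRNA windows within 100 kb of a coding gene the shares were 14.6%, 8.07% and 8.45%. Windows of protein-coding genes had 30.5%, 15.9% and 17.0%. The windows also differed in sequence. Median GC content was 42.7% in the desert lncRNA windows, 53.0% in the nearer lncRNA windows and 62.7% in the coding ones. An MspI site was in 23.2%, 50.8% and 74.2% of them in the same order. The part of sequence in these shares was not tested. The coding genes that border a desert with at least 500 kb of far DNA were like the other coding genes in hPSC, with 30.7% of 729 windows (interval 27.4 to 34.2%). In the hairpin lists they stood at 19.3% (interval 16.5 to 22.4%) and 20.03% (interval 17.2 to 23.1%), above the 15.9% and 17.0% of all coding starts. The hPSC list exceeded each hairpin list at lncRNA starts in the deserts and at coding starts alike.

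Far intergenic DNA held few listed regions per Mb. DNA over 100 kb from coding genes and in no gene, called far DNA below, made up 696.0 Mb or 24.2% of the 2873.9 Mb of autosomes. It held 9.91% of the autosomal hPSC regions (interval 9.62 to 10.2%), 10.6% of the shLUC regions (interval 10.3 to 10.9%) and 10.6% of the shHNRNPU regions (interval 10.3 to 10.9%). Its density was 5.63 regions per Mb in hPSC, 5.93 in shLUC and 5.44 in shHNRNPU. Other autosomal DNA had 16.4, 15.9 and 14.7 regions per Mb, so its density was 2.91-fold that of far DNA in hPSC, 2.69-fold in shLUC and 2.70-fold in shHNRNPU. Part of far DNA holds no region over very long runs. Leaving out 22 stretches with 1 Mb or more in a row without a region of any list, which took away 177.6 Mb but only 55, 137 and 121 members, gave densities of 7.45, 7.70 and 7.08 per Mb. Other DNA, from which nothing was left out, was then still 2.19-fold denser in hPSC, 2.07-fold in shLUC and 2.08-fold in shHNRNPU. That choice was made after seeing the data, and whether these runs are gaps of the assembly could not be read without a genome.

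Density went down in steps with distance from coding genes. In DNA outside all genes and within 10 kb of a coding gene there were 26.7 regions per Mb in hPSC, 19.6 in shLUC and 18.2 in shHNRNPU. From 50 to 100 kb, just short of the limit, the values were 11.97, 11.3 and 10.4. From 100 to 200 kb they were 9.45, 9.51 and 8.61, and from 200 to 500 kb they were 7.18, 7.34 and 6.74. Between 500 and 1000 kb the lists held 5.26, 5.91 and 5.54 regions per Mb. Beyond 1000 kb there were 1.39, 1.78 and 1.64 per Mb, or 4.91, 5.76 and 5.39 without the stretches with an empty run of 1 Mb. The hPSC list was thus the densest of the 3 near genes and the least dense beyond 500 kb. The closest members lay 100012 bp from a coding gene in hPSC and 100027 bp in both hairpin lists, and the intergenic region just outside lay at 99970 bp in each list. In the 10 kb inside the limit there were 190 hPSC, 204 shLUC and 180 shHNRNPU members, and in the 10 kb outside it 269, 258 and 237 intergenic regions. Per Mb of DNA in no gene these were 9.34, 10.02 and 8.85 inside and 12.02, 11.5 and 10.6 outside.

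**Figure D1:**
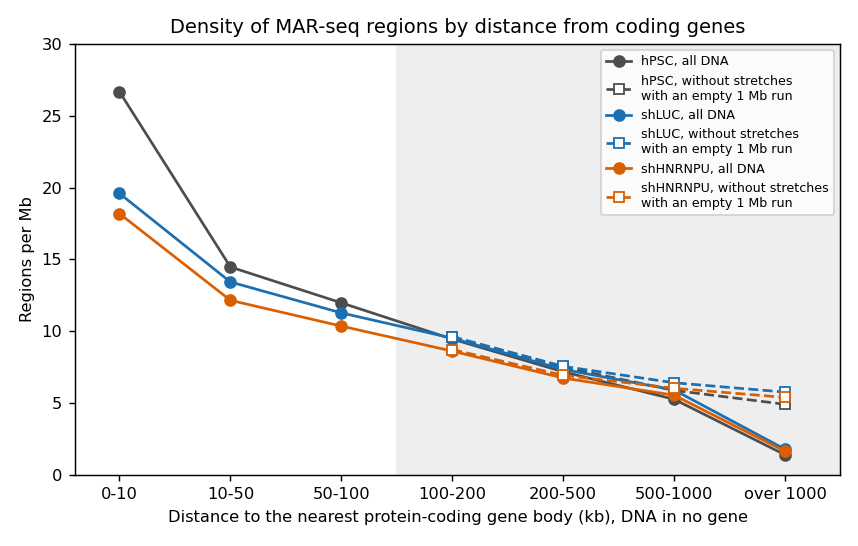
Density of regions (regions per Mb of DNA in no gene) in 7 bands of distance to the nearest protein-coding gene body (kb) for the hPSC, shLUC and shHNRNPU lists. Filled points use all such DNA, open squares leave out stretches with an empty run of 1 Mb, and the grey area holds the far intergenic regions. Density steps down from 26.7, 19.6 and 18.2 per Mb at the genes to 5.26, 5.91 and 5.54 between 500 and 1000 kb, and the last step is steep only when the empty stretches are counted.

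Non-coding genes in the same deserts were somewhat denser than the DNA around them. Over 100 kb from a coding gene, gene bodies of lncRNAs, pseudogenes and other non-coding genes filled 206.9 Mb and held 8.40, 8.57 and 7.84 regions per Mb in hPSC, shLUC and shHNRNPU, against 5.63, 5.93 and 5.44 for far intergenic DNA. The contrast was smaller without the stretches with empty runs, where the values were 8.45, 8.55 and 7.82 in the non-coding genes and 7.45, 7.70 and 7.08 in far intergenic DNA. Far intergenic regions themselves lay nearer to such genes than their territory did. In far DNA without the stretches with empty runs, 172 hPSC members (4.45%, interval 3.82 to 5.15%), 166 shLUC members (4.16%, interval 3.56 to 4.83%) and 155 shHNRNPU members (4.23%, interval 3.598 to 4.93%) had a gene of any biotype within 1 kb. Points placed every 1 kb in the same DNA had one in 1.97% of cases. The neighbour was a lncRNA for 3.26% of hPSC, 2.83% of shLUC and 2.75% of shHNRNPU members, against 1.19% of points. Pseudogenes were close to 0.829%, 1.28% and 1.39% of members, against 0.720% of points. The median distance to any gene was 34.0, 34.5 and 33.6 kb for members and 40.2 kb for points.

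The sparse deserts were a feature of every autosome. On each of the 22 autosomes far DNA had a lower density than the other DNA of the same chromosome in all 3 lists, and this held on all 22 also without the stretches with empty runs. With all stretches, chromosome 10 had the highest shLUC density of members, 8.75 per Mb, and chromosome 22 the lowest hPSC density, 2.06 per Mb. The low densities of chromosomes 14, 15 and 22 went with empty runs at their ends. Without those stretches chromosome 15 had 9.01, 9.13 and 8.78 members per Mb in hPSC, shLUC and shHNRNPU, where all its far DNA had 2.72, 2.82 and 2.72. Chromosome 19 is rich in coding genes and had only 5.32 Mb of far DNA, with 25, 24 and 21 members.

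**Figure D2:**
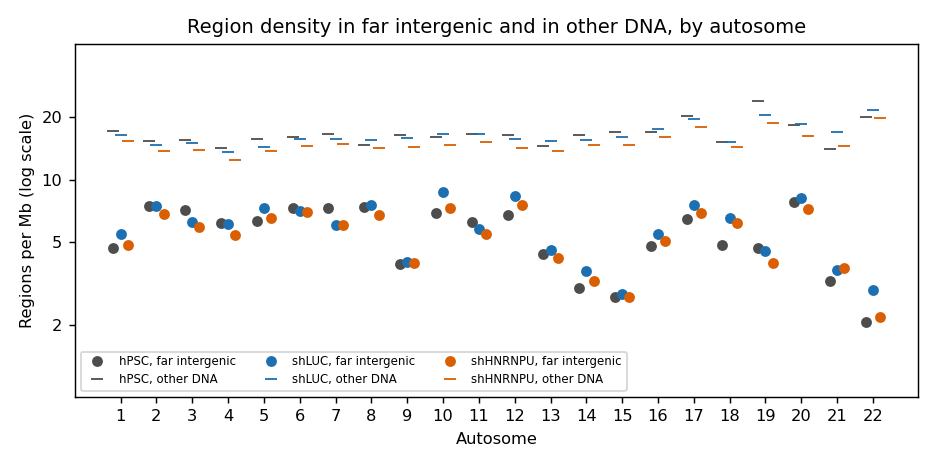
Regions per Mb (log axis) on each of the 22 autosomes, with points for far intergenic DNA and short bars for the other DNA of the same chromosome, coloured by list. All points lie below the bars of their chromosome, and chromosome 22 has the lowest hPSC point at 2.06 per Mb.

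Neighbouring far intergenic regions were widely spaced. Within a stretch between coding genes, the median gap from one member to the next was 76.0 kb in hPSC (interval of the median 71.6 to 81.3 kb, quartiles 27.2 and 176.6 kb). It was 75.8 kb in shLUC (interval 70.7 to 79.3 kb) and 82.6 kb in shHNRNPU (interval 78.0 to 87.2 kb). Over all autosomal regions the median gaps were 39.96, 41.3 and 45.1 kb. Close pairs were rare in every list. Gaps under 5 kb made up 74 of 2945 gaps in hPSC (2.51%), 64 of 3148 in shLUC (2.03%) and 46 of 2839 in shHNRNPU (1.62%), against 3.61%, 3.72% and 2.99% over all autosomal regions.

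Far DNA fell into 1427 stretches, each the far DNA between a pair of neighbouring coding genes or between a chromosome end and the first coding gene. A stretch held a member of at least 1 list in 1144 cases, an hPSC member in 972, a shLUC member in 979 and a shHNRNPU member in 950. Across the 337 stretches between coding genes with at least 500 kb of far DNA, member density ranked much alike in the hairpin lists, with a Spearman's rho of 0.82 and a Pearson's r of 0.83. For hPSC the likeness was lower, with rho 0.39 and r 0.42 against shLUC, and rho 0.40 and r 0.41 against shHNRNPU. These describe stretches of 1 genome in 3 lists, which share their empty runs and their gene neighbours, and no p-value was computed. All 3034 members shared by the hairpin lists had identical coordinates, against 142 of the 415 hPSC members that overlapped a shLUC region. Likeness of the samples cannot be told apart here from likeness in how the lists were made.

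The 6 stretches with the most members were long ones, and summed over the lists they had 15.4 to 23.8 members per Mb, around the median of 19.4 over the 337 large stretches. The first lay on chromosome 4 (177442438 to 181447612) between AGA, a lysosomal enzyme gene, and TENM3, which codes for an adhesion protein of the teneurin family that guides neuronal wiring. It held 20 hPSC, 26 shLUC and 23 shHNRNPU members in 2.98 Mb of far DNA. The stretch on chromosome 5 (103562790 to 107376893) between NUDT12, a nucleotide hydrolase gene, and EFNA5, an ephrin that repels growing axons, held 14, 28 and 25 members. The hPSC list was well below both hairpin lists here. The next stretch lay on chromosome 13 (80341127 to 83877204) between SPRY2, an inhibitor of receptor tyrosine kinase signalling, and SLITRK1, a synaptic adhesion gene, with 21, 20 and 21 members. The lists were level there in number. A shLUC region overlapped 1 of the 21 hPSC members, and 17 of the 20 shLUC members overlapped a shHNRNPU region. Over all members these shares were 10.6% and 73.5%.

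The remaining 3 of these 6 stretches followed the order of the hairpin lists over hPSC. Between PCDH7, a protocadherin, and ARAP2, a GTPase-activating protein, on chromosome 4 (31146801 to 36005403) there were 15 hPSC, 24 shLUC and 21 shHNRNPU members. Between LOC105372073 and PIK3C3, the class III phosphatidylinositol 3-kinase of autophagy, on chromosome 18 (37774689 to 41955233) there were 14, 23 and 21. Between the zinc finger genes ZNF37A and ZNF33B on chromosome 10 (38150294 to 42574168), on either side of the centromere, there were 11, 27 and 22. Among the 27 shLUC members there, 19 overlapped a shHNRNPU region, and 6 of the 11 hPSC members overlapped a shLUC region. Over all members these shares were 73.5% and 10.6%. The handling of reads in repeated DNA is not known here, and its part in this sharing was not tested.

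The densest stretches with at least 500 kb of far DNA were short. Between TAFA5, a secreted chemokine-like protein of the brain, and BRD1, a bromodomain protein, on chromosome 22 (48751933 to 49773277) there were 9 hPSC, 13 shLUC and 9 shHNRNPU members in 0.523 Mb, which is 59.3 per Mb summed over the lists. Between PLXNA2, a semaphorin receptor, and CAMK1G, a calmodulin-dependent kinase, on chromosome 1 (208244385 to 209583713) there were 9, 14 and 13 (55.2 per Mb summed). CD83, a marker of mature dendritic cells, and JARID2, a subunit of Polycomb repressive complex PRC2 that acts in embryonic stem cells, bordered a stretch on chromosome 6 (14136919 to 15246068) with 12, 7 and 6 (48.5 per Mb summed). It was the one of these 4 in which hPSC held the most. None of its 12 hPSC members overlapped a shLUC region, against 10.6% of all hPSC members. Between LMO7, a LIM domain protein, and KCTD12, an auxiliary subunit of the GABA-B receptor, on chromosome 13 (75859871 to 76880174) there were 3, 12 and 13 (46.9 per Mb summed).

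The sparsest stretches among those with at least 1 Mb of far DNA and no empty run of 1 Mb held a few members each. LOC107987004 and LOC107987067 on chromosome 9 (63046085 to 64719073) enclosed 2 hPSC, 3 shLUC and 3 shHNRNPU members in 1.12 Mb, 7.13 per Mb summed over the lists. AADAT, an aminotransferase, and GALNTL6, a glycosyltransferase-like gene, on chromosome 4 (170094293 to 171813403) enclosed 4, 4 and 3 in 1.22 Mb. CHD1, a chromatin remodeller that stem cells need for open chromatin, and FAM174A on chromosome 5 (98929008 to 100535373) enclosed 6, 2 and 4 in 1.28 Mb. ZPLD1, a zona pellucida-like domain gene, and ALCAM, an adhesion gene, on chromosome 3 (102479842 to 105366908) enclosed 8, 6 and 5 in 1.96 Mb. The longest stretch without an empty run, on chromosome 17 (21704613 to 27294113) between KCNJ18, a potassium channel gene, and WSB1, a ubiquitin ligase adaptor, held 19, 15 and 16 members in 5.14 Mb and spans the centromere. Within it, 14 of the 15 shLUC members were in the shHNRNPU list and 7 of the 19 hPSC members were in the shLUC list. Over all members these shares were 73.5% and 10.6%. As between ZNF37A and ZNF33B, the part of reads from repeated DNA in this sharing was not tested.

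**Figure D3:**
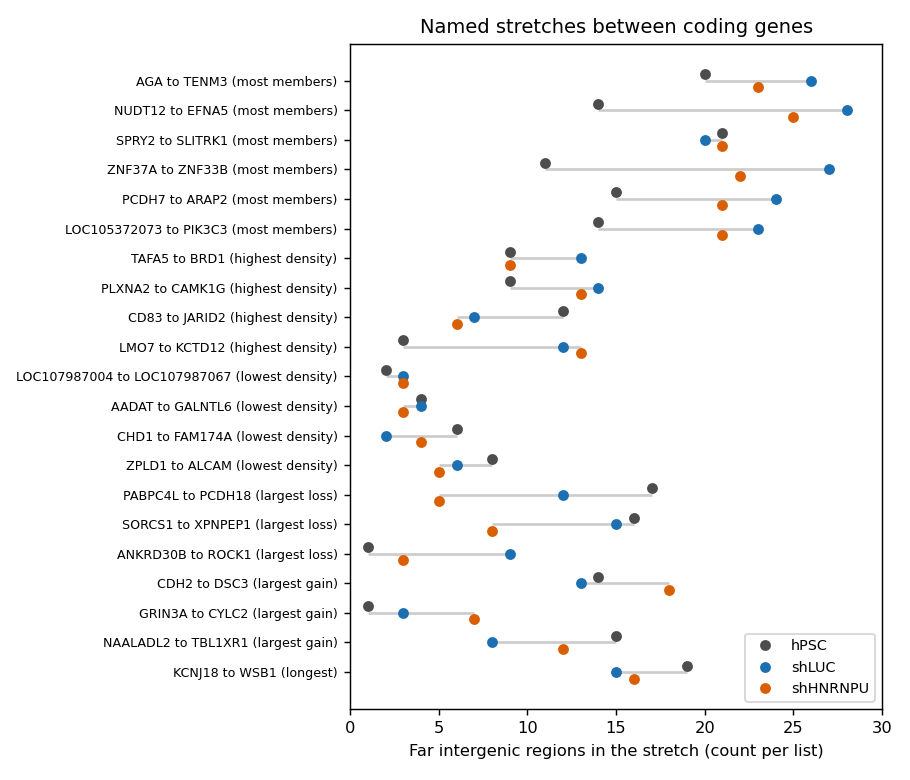
Number of far intergenic regions per list (x axis, count) in 21 stretches, each named by its flanking coding genes and the rule that chose it. The hPSC point lies below both hairpin points in 5 of the 6 stretches with the most members, and the hairpin points lie farthest apart in the stretches chosen for a loss, with 12 against 5 and 15 against 8.

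Stretches next to developmental transcription factors were denser than average, and the few short ones next to olfactory receptor genes held 7 members in all. Leaving out stretches with an empty run of 1 Mb, the 1388 stretches between coding genes had 7.45 hPSC, 7.70 shLUC and 7.08 shHNRNPU members per Mb. The 128 stretches with a developmental transcription factor at either side had 9.003, 9.27 and 8.48 per Mb. The 39 stretches beside genes of secreted developmental ligands, such as growth factors and morphogens, had 8.40, 9.68 and 7.67, from 92, 106 and 84 members. With empty runs included, the nearer flank alone gave 9.03, 8.85 and 6.32, against 6.32, 6.64 and 6.10 for all stretches between coding genes. No interval was computed for these densities. Adhesion and axon guidance genes bordered 116 stretches that were long, with a median of 0.686 Mb of far DNA against 0.163 Mb for all, and held 6.04, 6.73 and 6.30 members per Mb. Ion channel and transmitter receptor genes bordered 76 stretches with 7.07, 6.19 and 5.63 per Mb. Genes of the ZNF zinc finger family bordered 53 stretches with 6.87, 7.14 and 6.11.

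The 12 stretches beside olfactory receptor genes, which code for odorant receptors and lie in clusters, held 4 hPSC, 2 shLUC and 1 shHNRNPU members in 1.39 Mb. No hPSC member was found in 9 of these 12, no shLUC member in 10 and no shHNRNPU member in 11, against 433, 427 and 458 of all 1388 stretches. They were also short, with a median of 0.0830 Mb of far DNA against 0.163 Mb for all, and the part of length in their empty share was not tested. With the empty runs included the ratio to all stretches was 1.40 for transcription factors and 1.20 without them, and for the ligand genes 1.35 and 1.16. For adhesion genes the direction depended on the stretches used, with a ratio of 0.974 over all, 0.859 without the empty runs and 1.15 over stretches of at least 500 kb. A gene can be in more than 1 class and a stretch has a gene on each side, so the classes overlap.

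**Figure D4:**
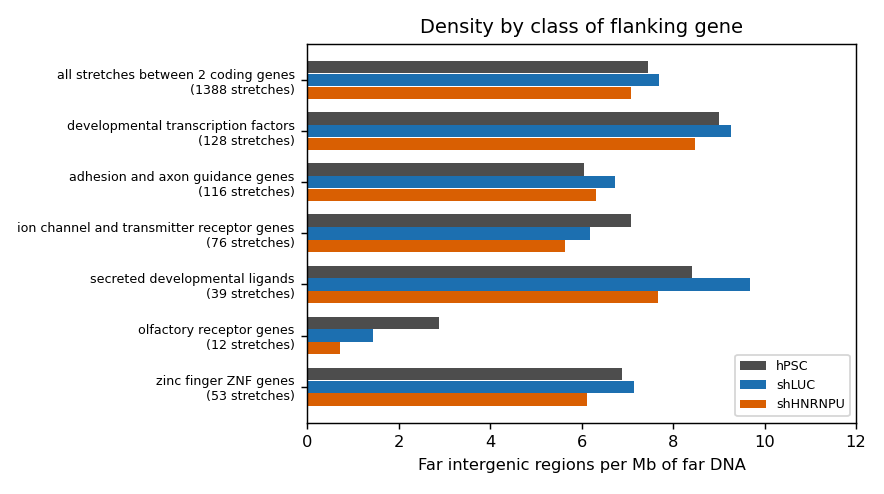
Far intergenic regions per Mb of far DNA (bars, starting at 0) in stretches grouped by the class of either flanking coding gene, for the 3 lists, without stretches that have an empty run of 1 Mb. Transcription factor stretches stand at 9.003, 9.27 and 8.48 per Mb against 7.45, 7.70 and 7.08 for all, and the 12 olfactory receptor stretches hold 4, 2 and 1 members.

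The shLUC and shHNRNPU lists shared most of their far intergenic regions. Of the 4127 shLUC members, 3034 overlapped a shHNRNPU region by at least 1 bp (73.5%, interval 72.1 to 74.9%). Over all autosomal shLUC regions the share was 70.9%, and over the autosomal regions that are not far intergenic it was 70.6% (interval 70.1 to 71.0%). Of the 3789 shHNRNPU members, 80.1% overlapped a shLUC region (interval 78.8 to 81.3%), against 77.0% of all autosomal shHNRNPU regions and 76.6% of the others (interval 76.1 to 77.1%). The members were thus a few percentage points above the background in both directions. So were the regions in non-coding genes over 100 kb from a coding gene, with 73.6% and 80.5%. All 3034 shared members started and ended at identical positions in both lists, as did 24508 of the 24511 shared regions elsewhere on the autosomes. How the lists came by the same boundaries is not given in the sources used here. Among intergenic regions the share was higher far from genes than near them. Within 10 kb it was 66.8% of shLUC and 71.9% of shHNRNPU regions. Beyond 1000 kb it was 76.8% (interval 72.1 to 81.1%) and 83.3% (interval 78.9 to 87.2%). From 50 to 100 kb it was 71.3% and 77.6%, and inside protein-coding gene bodies 71.4% and 77.1%, both nearer to the values of members.

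The hPSC list shared far fewer members with either hairpin list. Of the 3917 hPSC members, 415 overlapped a shLUC region (10.6%, interval 9.65 to 11.6%) and 453 a shHNRNPU region (11.6%, interval 10.6 to 12.6%). The shares over all autosomal hPSC regions were 14.0% and 15.6%. From the other side, 410 shLUC members (9.93%, interval 9.04 to 10.9%) and 448 shHNRNPU members (11.8%, interval 10.8 to 12.9%) overlapped an hPSC region, against 14.2% and 17.3% of all autosomal regions of those lists. Of the 415 hPSC members that overlapped a shLUC region, 142 had the same coordinates (34.2%, against 30.1% elsewhere on the autosomes), and of the 453 that overlapped a shHNRNPU region, 188 did (41.5%, against 36.5% elsewhere). Low sharing with hPSC was seen nearer to genes as well. Intergenic regions 10 to 50 kb from a coding gene shared 8.94% (interval 8.05 to 9.89%) of hPSC with shLUC, and those within 10 kb shared 16.4% (interval 15.3 to 17.5%). The untreated cells differ from both hairpin groups in the hairpin itself, and this cannot be told apart from a difference in batch or calling.

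**Figure D5:**
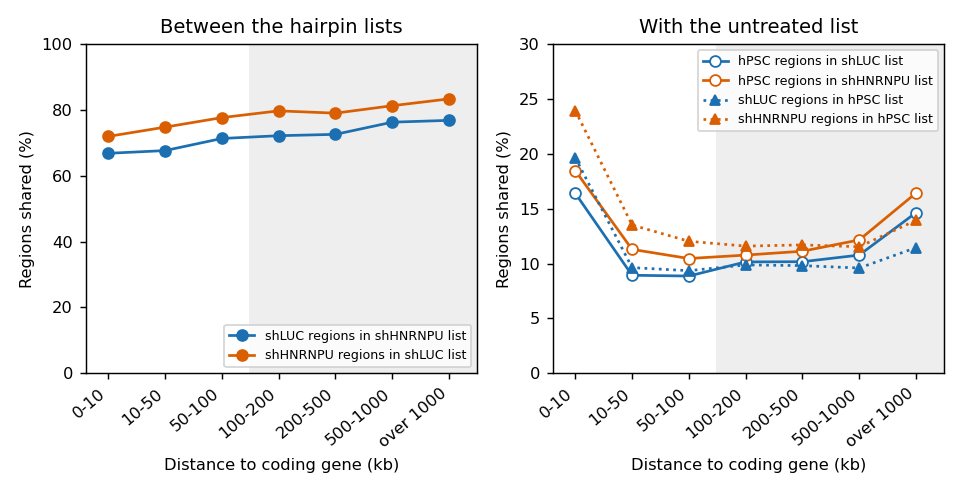
Share of intergenic regions of a list that overlap another list (percent) by distance to the nearest coding gene (kb), between the hairpin lists on the left and with the hPSC list on the right, on different scales. The grey area holds the far intergenic regions, where shLUC and shHNRNPU share 73.5% and 80.1% of members and hPSC shares 10.6% with shLUC.

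Members held by only 1 hairpin list were found in hPSC more often than those held by both. An hPSC region overlapped 255 of the 3034 shLUC members that shHNRNPU shared (8.40%, interval 7.44 to 9.45%), 155 of the 1093 shLUC members that shHNRNPU lacked (14.2%, interval 12.2 to 16.4%) and 193 of the 755 shHNRNPU members that shLUC lacked (25.6%, interval 22.5 to 28.8%). In the other autosomal DNA the shares in the same order were 14.3%, 15.8% and 29.8%. The gap between shared and shLUC-only regions was therefore wider in far DNA, 8.40% against 14.2%, than in the other DNA, 14.3% against 15.8%. The difference was not tested.

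Merged over the 3 lists, far intergenic regions formed 8190 sites. Of these, 3309 (40.4%) were of hPSC alone, 2779 (33.9%) of both hairpin lists without hPSC, 938 (11.5%) of shLUC alone, 562 (6.86%) of shHNRNPU alone and 255 (3.11%) of all 3 lists. A further 154 (1.88%) were of hPSC and shLUC and 193 (2.36%) of hPSC and shHNRNPU. Among sites elsewhere on the autosomes the single-list shares were close to these, 40.1% for hPSC, 12.2% for shLUC and 7.46% for shHNRNPU. Sites of both hairpin lists made up 29.8% there, sites of all 3 lists 4.95%, and the classes of hPSC with shLUC and with shHNRNPU 2.29% and 3.17%. The 255 sites lay on all 22 autosomes at a median of 307.2 kb from a coding gene. The 3 farthest from a coding gene were close to centromeres. They lay on chromosome 1 at 125183604 to 125184003 in hPSC and at 125183564 to 125183963 in both hairpin lists, 3721 kb from the gene LINC02798, which the table lists as protein-coding, on chromosome 17 at 25074268 to 25074667 in hPSC, 2220 kb from WSB1, and on chromosome 10 at 40556483 to 40556882 in hPSC, 2017 kb from ZNF33B. Outside those stretches, a limit set after the values were seen, the farthest lay on chromosome 4 between PCDH7 and ARAP2, at 34335431 to 34335830 in hPSC and 34335311 to 34335710 in both hairpin lists, 1670 kb from ARAP2.

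The shHNRNPU list held slightly fewer far intergenic regions than the shLUC list, by the same margin as elsewhere. The log2 ratio of members was -0.12 (3789 against 4127), and that of the other autosomal regions was -0.12 as well (31998 against 34733). Members were fewer in shHNRNPU on 21 of the 22 autosomes, with 70 against 69 on chromosome 21, and the other regions were fewer on all 22. Between the untreated and the control list, the log2 ratio of hPSC to shLUC was -0.075 for members (3917 against 4127) and 0.036 for the other autosomal regions (35609 against 34733). With 1 list per group, none of these ratios can be set against a spread between cultures or told apart from a difference in depth or calling.

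Among the 1427 stretches, 396 held fewer members in shHNRNPU than in shLUC, 222 held more and 809 held the same number. The 809 include stretches without a member of either hairpin list, and 1144 of the 1427 held a member of any list. Over all stretches shHNRNPU had 3789 members against 4127 in shLUC. The next 6 stretches are the extremes of the difference between these lists within a stretch, so their values are a description. Sharing between the hairpin lists within them is tied to that difference. Its distance from the share over all members is therefore no separate result. PABPC4L and PCDH18, a protocadherin, on chromosome 4 (134201902 to 137518917) had 12 shLUC and 5 shHNRNPU members, with 17 in hPSC. All 5 shHNRNPU members were shared with shLUC, against 80.1% of all shHNRNPU members. SORCS1, a sorting receptor of neurons, and XPNPEP1, an aminopeptidase, on chromosome 10 (107181139 to 109864765) had 15 and 8, with 16 in hPSC. Of the 15 shLUC members, 6 overlapped a shHNRNPU region, against 73.5% of all shLUC members. With only 8 shHNRNPU members there, the choice of the stretch for its loss already kept this share low. ANKRD30B and ROCK1, a kinase of the actin cytoskeleton, on chromosome 18 (14941136 to 20946905) had 9 and 3, with 1 in hPSC, in a stretch that also has an empty run of 3.66 Mb.

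More members in shHNRNPU than in shLUC were found between CDH2, which codes for N-cadherin, and DSC3, a desmosomal cadherin, on chromosome 18 (28177131 to 30989364), with 18 against 13 and 14 in hPSC. All 13 shLUC members there were also in the shHNRNPU list, against 73.5% of all shLUC members. The choice of the stretch for its gain favours such sharing. GRIN3A, an NMDA receptor subunit, and CYLC2, a protein of the sperm head, on chromosome 9 (101738648 to 102995332) had 7 against 3, with 1 in hPSC. NAALADL2, a peptidase-like gene, and TBL1XR1, a subunit of corepressor complexes, on chromosome 3 (175810549 to 177019343) had 12 against 8, with 15 in hPSC.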

How the data were processed

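MAR-seq regions were taken from 3 deposited lists, 1 for each of 3 groups of 2 samples. Per the labels, the authors' processing notes name cutadapt, Bowtie2, SAMtools, MACS2 and deepTools and the genome hg38. Versions, thresholds, use of the input sample and how 2 samples became 1 list are not given in the sources used here. The labels do not say what the tag rp1 in the names of the hPSC regions means. Whether the hPSC list rests on 1 sample or on 2 is therefore unknown. The deposited score column held 0 in every row, so no region has a height, and only positions were used. Depth is therefore unknown.

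Region positions, counted from 1, were set against the gene bodies of the RefSeq table (GRCh38.p14), 18973 protein-coding and 56080 of any biotype on autosomes. The table lists 676 further autosomal genes of scaffolds at scaffold positions; they were recognised by the sort order of the table and left out. Chromosome spans run to the last position of a gene or region. Stretches were named by rule: the 6 with most members, the 4 densest (at least 500 kb of far DNA), the 4 sparsest (at least 1 Mb), the 3 with the largest loss and the 3 with the largest gain from shLUC to shHNRNPU, the longest, and the 3 farthest members in all lists. Stretches with an empty run of 1 Mb were left out of the sparsest and longest. The 6 gene classes were lists of symbols. Members, lists and rules were chosen with earlier results of these data known. No replicate error exists, so no test was run. Alternatives were other distances, whole regions in place of centres, merged regions, pseudogenes ignored, other overlaps and other stretches. Base composition of the regions was not analysed here. The code was tested on simulated data. Scripts ran under Python 3.11.15 with scipy 1.17.1, numpy 2.4.6, matplotlib 3.10.9 and pandas 2.3.3.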

Additional observations from a re-analysis of the deposited data

How the results depend on the processing

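No paired analysis was possible because the deposited lists carry no replicate, and for the same reason no sample could be left out. Of 115 recomputed values 81 moved by less than their counting interval or, for counts, by less than 1.5 times, and 34 moved further. The log2 ratios kept their sign in each alternative, while the density ratio beside adhesion genes crossed 1. Members over 200 kb from a coding gene numbered 2469 (hPSC), 2669 (shLUC) and 2469 (shHNRNPU). The ratio of far to other density, 0.344, 0.372 and 0.371 in the order hPSC, shLUC and shHNRNPU, was 0.402, 0.420 and 0.418 at 50 kb, 0.286, 0.317 and 0.318 at 200 kb, 0.422, 0.456 and 0.454 over 1 Mb windows that hold a region, and 0.456, 0.483 and 0.482 without stretches with an empty run, and was below 1 in each. The stretches with an empty run were left out of far DNA only. Leaving out 1 autosome at a time gave ratios of 0.333 to 0.353, 0.361 to 0.380 and 0.361 to 0.379. With scaffold genes kept, a choice added after seeing the data like that of the empty runs, it was 0.347, 0.374 and 0.373.

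With centres within 5 kb as the criterion, 75.0% of shLUC members were shared with shHNRNPU, 81.3% of shHNRNPU with shLUC, 18.4% and 18.6% of hPSC with shLUC and shHNRNPU, and 17.1% and 18.7% of shLUC and shHNRNPU with hPSC. With an overlap of at least 50% of both regions, the hPSC shares were 8.48% and 9.57%, and those of shLUC and shHNRNPU with hPSC 8.02% and 9.84%. Relative to other autosomal regions the log2 ratio of shHNRNPU to shLUC was -0.0050. Relative to all stretches, density beside transcription factors was 1.40, or 1.20 without empty runs, and beside ligand genes 1.35 or 1.16. Beside adhesion genes it was 0.974, with 1.02 for the nearer flank, 1.15 over stretches of at least 500 kb and 0.859 without empty runs, which lie on both sides of 1. Beside olfactory receptor genes it was 0.0648, with 0.0214 for the nearer flank, 0 over stretches of at least 500 kb and 0.226 without empty runs. Only the last of these values leaves out the stretch between OR4C12 and OR4C46, which had 4.28 Mb of far DNA and no member. The cause of these moves was not tested. Region heights and depth are unknown, so a region missing from 1 list may lie just under its threshold.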

Other observations

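The hPSC list held fewer members than either hairpin list over the stretches with long empty runs. These 22 stretches lie on 19 autosomes, many of them around centromeres or at the short-arm ends of chromosomes 13, 14, 15, 21 and 22, and they were singled out after their values were seen. Together they held 55 hPSC, 137 shLUC and 121 shHNRNPU members, while the other far DNA held 3862, 3990 and 3668. The hPSC list held fewer members than both hairpin lists in 14 of the 22 stretches and more than both in 2, and 5 stretches held no member of any list. The same was not counted over the other stretches. Some of the differences were small, with 5, 6 and 6 between EPHA3 and PROS1 and 2, 3 and 3 between CWH43 and DCUN1D4. Between ZNF716 and LOC124901649 on chromosome 7 there was 1 hPSC member against 20 shLUC and 21 shHNRNPU members. Between ALG10 and ALG10B, a pair of glycosyltransferase genes on chromosome 12, there were 0, 10 and 7. The stretch on chromosome 9 between LOC112268044 and SPATA31A5 held 0, 8 and 8. Between ZNF254 and UQCRFS1 on chromosome 19 the lists were level, with 14, 14 and 13. The log2 ratio of hPSC to shLUC members was -0.075 over all far DNA and -0.047 without these stretches. How reads in repeated DNA were handled is not given in the sources used here, and its part in these counts was not tested.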
